A study of Mus musculus with 3 samples.

Results

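The platelet-derived growth factor (PDGF) family was taken as 6 genes, the ligands *Pdgfa*, *Pdgfb*, *Pdgfc* and *Pdgfd* and the receptors *Pdgfra* and *Pdgfrb*, out of 31053 genes counted in single cells of the mouse iridocorneal angle and limbus. They were chosen by their symbols and not by their values. Aqueous humor leaves the eye there, through the meshwork (trabecular meshwork, TM) and then the canal of Schlemm (SC). The 2 control libraries came from *Angpt1* flox/flox mice, which carry the floxed alleles without Cre, and the single *Angpt1*ΔNC library from *Angpt1* flox/flox;Wnt1Cre+ mice, in which Wnt1-driven Cre deletes *Angpt1*, the gene of the TEK ligand angiopoietin-1, in neural crest derivatives. Each library was 1 pool of 2 to 3 mice at 6 weeks of age, described as of mixed sex, of a mixed strain crossed onto albino ICR mice. The TM, the sclera and, in the retina, pericytes are neural crest derivatives in the study's reporter mice, and endothelium is not. Stromal and mural cells may thus themselves carry the deletion.

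PDGFs are secreted dimers that bind the receptor tyrosine kinases PDGFRα and PDGFRβ. PDGF-A and PDGF-C act mainly on PDGFRα, the receptor of fibroblasts and other mesenchyme, PDGF-D acts mainly on PDGFRβ, the receptor of pericytes and vascular smooth muscle, and PDGF-B binds both. PDGF-B from endothelium recruits pericytes to growing vessels, and PDGF-C and PDGF-D are released as latent forms that proteases must cut.

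In build GRCm38, *Pdgfa* (ENSMUSG00000025856) lies on the minus strand at chr5:138976014-138997370 and *Pdgfb* (ENSMUSG00000000489) on the minus strand at chr15:79995874-80014977. *Pdgfc* (ENSMUSG00000028019) lies on the plus strand at chr3:81036416-81214040, and *Pdgfd* (ENSMUSG00000032006) on the plus strand at chr9:6168584-6378850. *Pdgfra* (ENSMUSG00000029231) is on the plus strand at chr5:75152292-75198215 and *Pdgfrb* (ENSMUSG00000024620) on the plus strand at chr18:61045150-61085061. The counts belong to whole genes, and exons or isoforms were not told apart.

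The libraries held 9076, 10160 and 6772 kept cells (control 1, control 2 and *Angpt1*ΔNC, the order of all values below), with a median of 6329.5, 6393.5 and 7444 unique molecular identifiers (UMIs) per cell. *Angpt1*, the targeted gene, had 37.8, 39.3 and 0.391 UMIs per 1000000 UMIs of the library, so it was low in the library labelled as deleted. *Xist* had 0.0390, 0.0249 and 652 UMIs per 1000000, and 69.7%, 72.1% and 29.4% of cells were typed as male (a Y-linked UMI and no *Xist*). The near absence of *Xist* from both controls goes against the description of mixed-sex pools, so that genotype and the sex make-up of the pools cannot be told apart except within male-typed cells. Each kept cell carries 1 of 35 labels of the authors. These labels came from the expression of the same cells, and 5 of the 6 members, all but *Pdgfd*, are among the 3467 genes of the deposited integrated values, so levels by label are a description without tests. A level is the mean over cells of UMIs per 10,000 UMIs of the cell, and a positive cell has at least 1 UMI. Shares of cells carry exact (Clopper-Pearson) 95% intervals where given, which cover counting error only.

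*Pdgfa* was the most widely counted ligand, with 12709, 12830 and 8821 UMIs, and *Pdgfb* had 893, 1088 and 1278. *Pdgfc* had 442, 473 and 378 UMIs and *Pdgfd* 836, 1152 and 725. The receptors had 3758, 5180 and 5288 UMIs of *Pdgfra* and 4387, 5273 and 3448 of *Pdgfrb*. The sources of these UMIs differed by gene, since the ligand transcripts *Pdgfa* and *Pdgfb* came in part from endothelial and immune cells that held next to none of the receptor transcripts. Immune cluster 24 gave 20.6%, 27.4% and 21.3% of the *Pdgfa* UMIs and the endothelium (SC, LEC and EC2 to EC4) 22.4%, 19.1% and 16.5%. Receptor-bearing cells gave *Pdgfa* UMIs too. The shares were 18.7%, 16.8% and 12.2% for mural clusters 19 to 21 and 10.9%, 14.1% and 17.9% for labels TM1 to TM11. For *Pdgfb*, cluster 24 gave 56.9%, 69.0% and 51.0%, the surface epithelium (clusters 2 to 5) 21.2%, 14.2% and 23.2%, and the endothelium 10.9%, 9.28% and 15.0%. By contrast, the TM stroma (labels TM1 to TM11) gave 81.2%, 82.8% and 56.7% of the *Pdgfra* UMIs and 60.6%, 60.0% and 59.9% of those of *Pdgfrb*. This class is wider than the meshwork. The authors read TM2 as corneal endothelium, TM6 to TM9 as uveal cells and TM10 as a possible corneal stroma. These sums move with the number of cells of each label, and fewer cells of a type and less RNA per cell cannot be told apart in them.

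**Figure D1:**
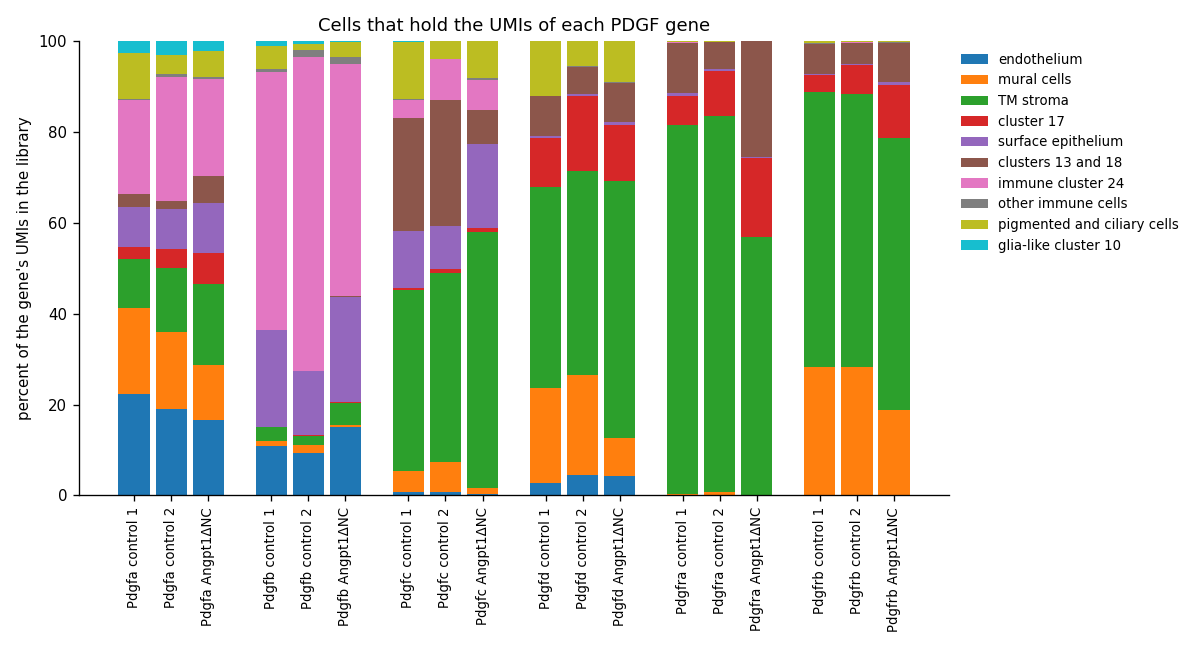
Share of each PDGF gene's UMIs, in percent, that came from each group of cells (colours), with 1 bar per library. Immune cluster 24 made up 51.0% to 69.0% of the *Pdgfb* UMIs, and the TM stroma 56.7% to 82.8% of the *Pdgfra* UMIs.

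*Pdgfa* was counted in all parts of the tissue, and its level was highest in Schlemm's canal and in a small smooth muscle-like group, cluster 21. Its mean level was at least 0.1 in 35 of the 35 labels and at least 5 in 6 of them. In SC cells it was 18.8, 11.5 and 12.7 UMIs per 10,000, and in cluster 21 14.9, 11.2 and 11.5. The library ranges of SC and cluster 21 overlapped, and both lay above those of the blood endothelial label EC4 (10.2, 7.27 and 7.46). Immune cluster 24 followed at 8.08, 7.60 and 6.90, then glia-like cluster 10 at 6.41, 5.75 and 8.01 and the endothelial label EC3 at 6.47, 6.27 and 6.68, and neighbours in this stretch overlapped. Pericyte-like cluster 20 (3.64, 3.02 and 6.55) overlapped EC2 above it (5.35, 3.34 and 6.08).

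Most cells of the leading groups had a *Pdgfa* UMI. The share was 93.3% of 431 cells in cluster 21, 92.7% in SC and 83.1% in cluster 24. It was 75.3% in cluster 10 and 58.2% in cluster 20. With each cell thinned to 2000 UMIs, it was still 82.0% in cluster 21 and 41.3% in cluster 20. At the other end, cluster 9 had the lowest mean level, 0.175, and *Pdgfa* was found in 12 of 327 cells of cluster 22 (3.67%, interval 1.91% to 6.32%), which had a median of 2436 UMIs.

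*Pdgfb* had a narrow range, with a mean level of at least 0.1 in 9 labels. Its level was highest in immune cluster 24, at 1.56, 1.75 and 2.37, and this range did not overlap that of EC4, at 0.684, 0.841 and 1.30. Further down, SC (0.305, 0.203 and 1.54), EC2 (0.735, 0.453 and 0.674), EC3 (0.161, 0.259 and 0.756) and cluster 2 of the surface epithelium (0.275, 0.337 and 0.197) overlapped their neighbours. The leading *Pdgfb* label was thus not endothelial, although the endothelial labels EC4, SC, EC2 and EC3 came next. The SC value of *Angpt1*ΔNC came from 15 cells. *Pdgfb* was found in 49.7% of the cells of cluster 24 (783 of 1575), in 33.8% of EC4 cells, and in 14.7% of the cells of epithelial cluster 4.

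Receptor-bearing cells had little *Pdgfb*. It was counted in 4 of 1195 pericyte-like cells of cluster 20 (0.335%), in 2 of 2282 cells of cluster 17 (0.0876%) and in 0 of 829 cells of TM9, which allows a share of up to 0.362%. In SC, 29 of 29 *Pdgfb*-positive cells also had *Pdgfa*, and in cluster 24 701 of 783 did, in labels where 92.7% and 83.1% of all cells had it. In the surface epithelium 167 of 380 *Pdgfb*-positive cells had *Pdgfa*, which was found in 45.2% of all cells there.

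The ligands *Pdgfc* and *Pdgfd*, which carry a CUB domain and need proteolysis, were led by cluster 13, a fibroblast-like group whose summed level of 6 fibroblast markers was 556, 453 and 538. *Pdgfc* in cluster 13 was 1.02, 1.30 and 0.784, above TM5 (0.586, 0.343 and 0.397), which in turn lay above cluster 7 (0.217, 0.173 and 0.125), with no overlap at either step. *Pdgfc* was found in 42.9% of the cells of cluster 13 and 29.9% of TM5 cells. None was found in 0 of 294 EC3 cells, which allows up to 1.02%, nor in 0 of 2048 cells of cluster 8, which allows up to 0.146%.

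*Pdgfd* was spread more evenly over stroma and smooth muscle. It was 0.70, 0.644 and 0.281 in cluster 13, 0.486, 0.585 and 0.374 in smooth muscle-like cluster 19, and 0.393, 0.379 and 0.303 in TM2. Neighbouring labels overlapped down to the fifth place, held by cluster 17 at 0.382, 0.381 and 0.184. It had a mean level of at least 0.1 in 17 labels. *Pdgfd*-positive cells made up 28.7% of cluster 13, 26.3% of cluster 19 and 23.2% of TM2, and 0 of 1575 cells of cluster 24, which allows up to 0.190%. *Pdgfb* and *Pdgfd*, both ligands of PDGFRβ, were therefore led by different labels.

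**Figure D2:**
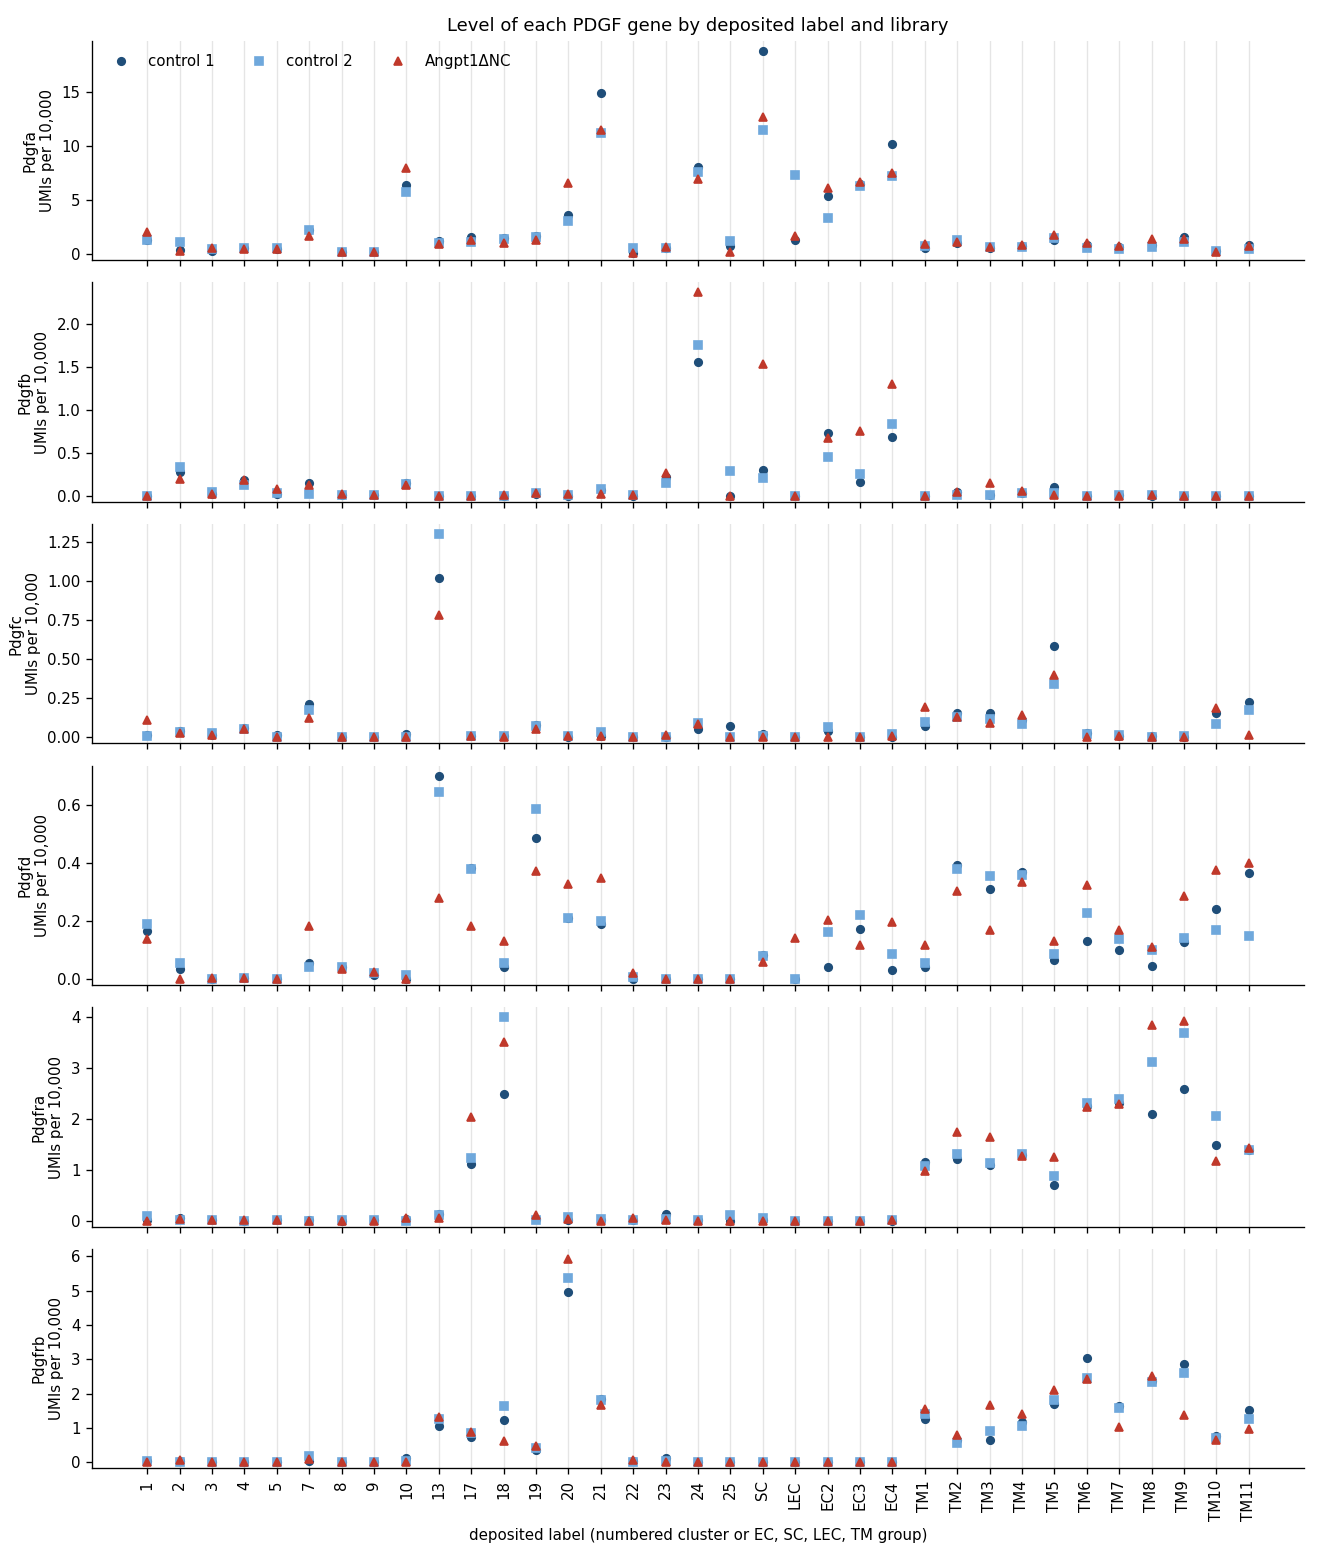
Level of each PDGF gene (y axes, UMIs per 10,000, mean over cells) in the 35 labels (x axis), with 1 panel per gene and 1 point per library. *Pdgfa* reached 18.8 in SC, *Pdgfb* 2.37 in cluster 24 and *Pdgfrb* 5.92 in cluster 20, the highest points of their panels.

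*Pdgfra*, the receptor of fibroblasts, was held by the TM stroma and by clusters 17 and 18. Its level was 2.59, 3.68 and 3.93 in TM9, 2.48, 3.99 and 3.50 in cluster 18 and 2.1, 3.11 and 3.84 in TM8. TM7 (2.31, 2.38 and 2.30) and TM6 (2.24, 2.30 and 2.23) followed, and these 5 labels overlapped their neighbours, while TM6 did not overlap TM10 (1.48, 2.06 and 1.18). The mean level was at least 0.5 in 13 labels, which were TM1 to TM11 and clusters 17 and 18. The lowest of them, TM5, at 0.941 on average, did not overlap the next label, fibroblast-like cluster 13, at 0.0970. Cluster 13, the label with the highest *Pdgfc*, thus had little of the *Pdgfra* transcript.

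*Pdgfra* was found in 70.7% of TM9 cells, 70.0% of cells of cluster 18 (700 of 1000) and 38.1% of those of cluster 17, but in 1.26% of cells of cluster 20 (15 of 1195). Among the limbal and corneal epithelium, which should lack the gene, the share was 1.30% (38 of 2912 cells, median 15905 UMIs), a depth well above the 4266 UMIs of cluster 20. At 2000 UMIs per cell, *Pdgfra* was found in 9 of 1167 cells of cluster 20 (0.771%) and in 2 of 2895 epithelial cells (0.0691%), so that its low share in cluster 20 lay above that of the epithelium. In the endothelium it was 0.842% (7 of 831 cells).

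*Pdgfrb*, the pericyte receptor, was led by pericyte-like cluster 20, at 4.98, 5.38 and 5.92. This lay above TM6 (3.03, 2.47 and 2.43) with no overlap, and TM8 (2.39, 2.34 and 2.51), TM9 (2.86, 2.61 and 1.38) and TM5 (1.69, 1.82 and 2.11) followed. Smooth muscle-like cluster 21 had 1.84, 1.82 and 1.68, above TM7, and cluster 13 had 1.21 on average. The mean level was at least 0.5 in 16 labels, so *Pdgfrb* ranged further than *Pdgfra*, into cluster 13 and into mural cells. Smooth muscle-like cluster 19 was lower, at 0.365, 0.415 and 0.474.

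*Pdgfrb* was found in 80.0% of cells of cluster 20 (956 of 1195), 71.1% of TM5, 65.6% of TM6, 48.3% of cluster 21 and 42.9% of cluster 13. The share was 0.687% in the limbal and corneal epithelium (20 of 2912 cells) and 0.963% in the endothelium (8 of 831 cells). Of the cells of cluster 20, 573 of 1195 (47.9%) had both *Pdgfa* and *Pdgfrb*.

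The identity of the mural labels was checked against marker genes. In cluster 20, 5 of 6 pericyte markers had a level of at least 0.5, and their summed level was 97.6, 110.0 and 89.5 against 24.1, 14.8 and 21.9 for 6 smooth muscle markers. In cluster 19 the smooth muscle sum was 307, 288 and 262. Cluster 21 was 229, 245 and 134 for smooth muscle markers and 35.2, 30.1 and 70.3 for pericyte markers, so that its *Angpt1*ΔNC cells held fewer contractile and more pericyte transcripts than the control cells. *Acta2*, the smooth muscle actin, was 112, 112 and 62.8 there, and *Rgs5*, a pericyte marker, 29.8, 24.1 and 64.1.

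**Figure D3:**
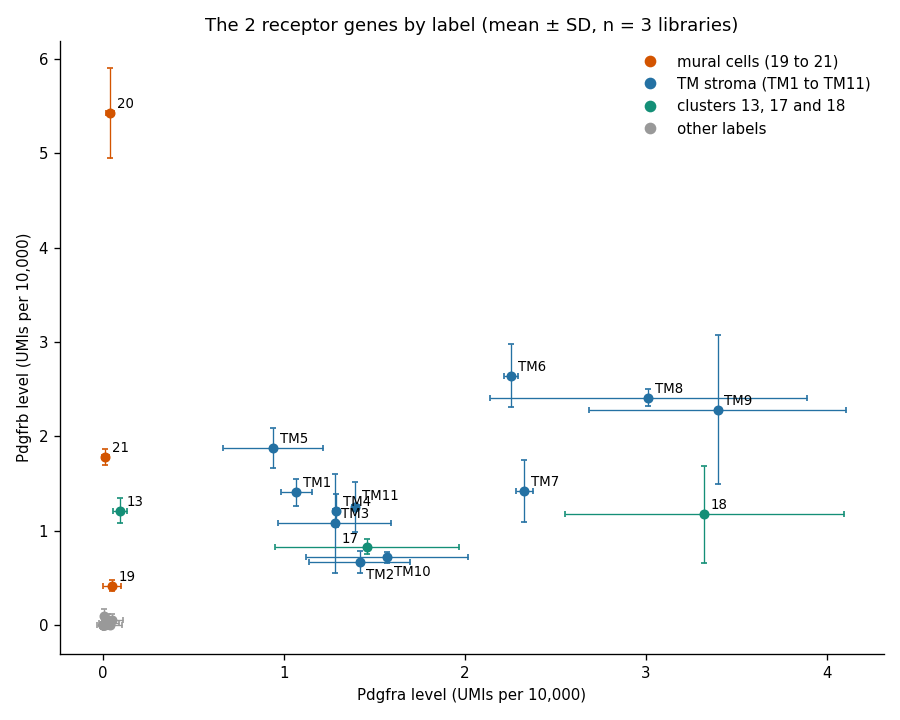
*Pdgfra* level (x axis) against *Pdgfrb* level (y axis) of each label, in UMIs per 10,000, as the mean of 3 libraries with bars of 1 SD, and with colours for groups of labels. Pericyte-like cluster 20 stands alone at a *Pdgfrb* level of 5.43 with next to no *Pdgfra*, and TM1 to TM11 hold both receptors.

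Both receptors were found together in stromal cells. Of 8073 TM stroma cells, 2413 (29.9%) had a UMI of each. *Pdgfrb* was found in 53.6% of the *Pdgfra*-positive cells (interval 52.1% to 55.1%; 54.1%, 53.4% and 53.3% by library) and in 48.1% of the *Pdgfra*-negative cells (46.4% to 49.7%; 46.8%, 48.4% and 49.6%). The *Pdgfra*-positive cells were deeper, with a median of 6648 UMIs against 6181.5. At 2000 UMIs per cell the shares were 25.8% and 22.6%, so the order held and the gap was small. In cluster 17 the shares were 27.6% and 27.8%, and in cluster 18 they were 39.7% and 30.3%, or 15.1% and 13.9% after thinning.

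The level pattern of each member over the 32 labels with at least 20 cells in each library was compared with that of all genes that reached 0.5 in some label. The most alike to *Pdgfa* were *Apold1* (Pearson r = 0.77), *Sncg*, *Mcam*, *Rhob* and *Srsf3*, and to *Pdgfb* *Rhbdf2* (r = 0.89), *Ggta1*, *Edn1*, *Cd14* and *Pgs1*. *Pdgfc* was most like *Ptx4* (r = 0.88), *Egfl6*, *Cilp2*, *Ssc5d* and *Thbs4*, and *Pdgfd* most like *Cdkn1c* (r = 0.84), *Rbfox2*, *Spsb1*, *Shc1* and *Cald1*. *Pdgfra* was nearest to *Lum* (r = 0.94), the keratan sulfate proteoglycan lumican, *Vegfa*, *Cdh11*, *Gfpt2* and *Wnt5a*, and *Pdgfrb* to *C1s1* (r = 0.94), *Prrx1*, *Lama2* and *Lhfp*. Among the members the receptors were alike (r = 0.76), as were *Pdgfd* and *Pdgfrb* (r = 0.67), whereas *Pdgfb* ran opposite to *Pdgfrb* (r = -0.58) and *Pdgfra* (r = -0.51). The labels share libraries and depth, so these are descriptions over labels.

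The question for the genotypes was whether loss of angiopoietin-1 from the neural crest went with changes of PDGF genes. The UMIs of 5 cell classes were summed per library and compared with edgeR's quasi-likelihood test, 2 control libraries against 1, with Benjamini-Hochberg adjusted p. With 1 residual degree of freedom, the spread comes from the 2 controls alone and was taken to hold for *Angpt1*ΔNC too. Of the 6 members, 3 passed the filter on low counts in the endothelium, 6 in mural cells, 6 in the TM stroma, 4 in cluster 17 and 5 in the surface epithelium. In the endothelium 1 of 3 members tested was called, where 12.9% of all genes were called (8.12% higher in *Angpt1*ΔNC). In mural cells (clusters 19 to 21) 2 of 6 were called against 16.4% (9.12% higher), and in the TM stroma 1 of 6 against 8.97% (3.46% higher). In cluster 17 0 of 4 were called against 0.288%, and in the surface epithelium 0 of 5 against 0.139%. The 4 calls, of which 2 were for *Pdgfb*, were all higher in *Angpt1*ΔNC.

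**Figure D4:**
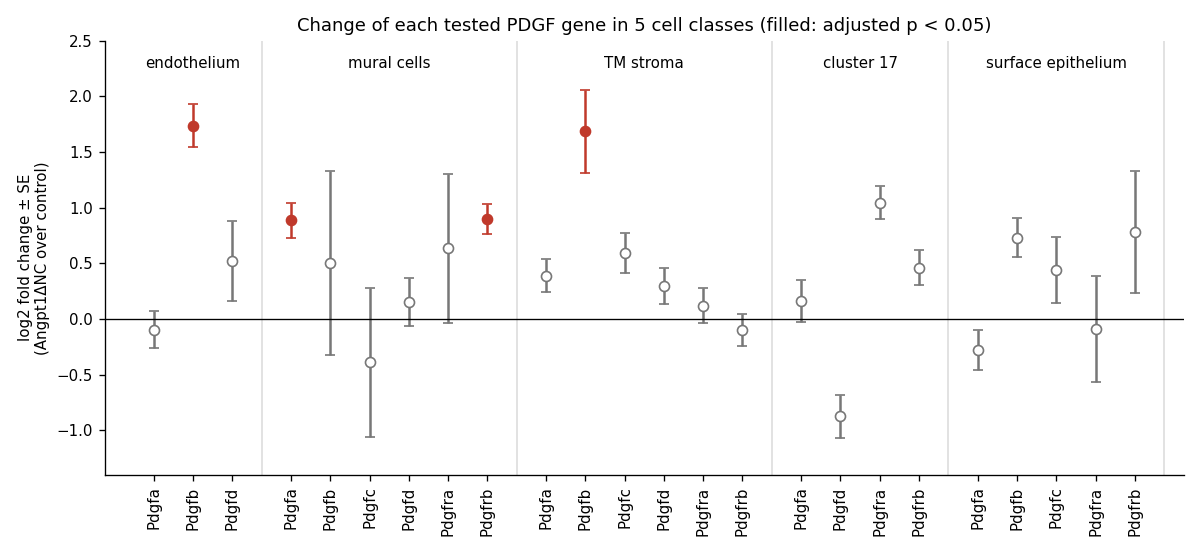
log2 fold change (y axis, *Angpt1*ΔNC over control, bars of 1 SE) of each PDGF gene tested in the 5 cell classes, with filled points where the edgeR adjusted p was under 0.05. *Pdgfb* in the endothelium lies at 1.74 and *Pdgfrb* in the TM stroma at -0.10.

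*Pdgfb*, the endothelial signal to pericytes, was higher in *Angpt1*ΔNC endothelium. Its level in the endothelium was 0.414 and 0.460 in controls and 0.983 in *Angpt1*ΔNC, from 97, 101 and 192 UMIs. The *Angpt1*ΔNC library lay above both controls, and the share of positive cells was 20.7%, 21.4% and 43.1%, or 6.88%, 7.07% and 18.2% at 2000 UMIs per cell. *Pdgfb* rose by 1.74 on the log2 scale (SE 0.19, edgeR adjusted p = 1.79e-08), 3.33-fold. DESeq2 gave an adjusted p of 0.000360, and the change was 1.70 in male-typed cells and 1.52 with equal cells per label. *Pdgfa* changed by -0.10 and *Pdgfd* by 0.52 (adjusted p = 0.40, edgeR), neither past the threshold.

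Within the endothelium, *Pdgfb* was higher in *Angpt1*ΔNC in EC3 and EC4, in fits of single labels that were added after the data were seen. In EC3 it was found at 21, 36 and 41 UMIs, in 15.3%, 20.3% and 41.4% of cells. The fit gave 1.97 (SE 0.33, edgeR adjusted p = 6.28e-05), against 7.3% of all genes called in EC3. In EC4 the counts were 45, 39 and 95 UMIs, in 26.0%, 26.2% and 51.7% of cells, and the fit gave 1.22 (edgeR adjusted p = 0.0309), against 2.95% called. Both calls were lost with DESeq2 (adjusted p = 0.0875 and 0.501), which called fewer genes, 261 against 1250 in the whole endothelium, and that in EC3 also in male-typed cells (edgeR adjusted p = 0.292). In EC2 the levels overlapped (0.735, 0.453 and 0.674), and the fit (5.36% of genes called) did not pass the threshold (edgeR adjusted p = 0.193). SC held 17, 9 and 25 UMIs, the last from 15 cells, too few to be fitted. The change in EC3 exceeded that in EC4 by 0.75 (SE 0.37, edgeR adjusted p = 0.610, 0.0959% of genes called), which did not pass the threshold.

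Markers of other cells were checked in the endothelial class. The summed level of the 6 immune markers was 1.70, 0.689 and 0.973, with the T cell marker *Cd3e* at 0 in each library, and that of 4 platelet markers 0.280, 0.224 and 0.230. The *Angpt1*ΔNC library was not the highest in either for the class as a whole. In EC4 it was the highest in both, at 1.67, 0.650 and 1.75 for immune and 0.172, 0.240 and 0.333 for platelet markers. In EC3 it was the highest in neither (1.05, 0.238 and 0.447, and 0.318, 0.211 and 0.238). The 6 fibroblast markers moved with *Pdgfb*, at 0.654, 0.913 and 3.77 in the endothelium. They summed to 0.826, 1.35 and 7.83 in EC4 and 0.543, 0.582 and 0.860 in EC3. The *Pdgfb* level of the TM stroma itself was at most 0.0266. The endothelial markers summed to 88.0, 90.8 and 89.3. A list of stress genes that tissue dissociation induces summed to 88.0, 68.6 and 71.2. The part of these marker and stress values in the change of *Pdgfb* was not tested.

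In mural cells *Pdgfa* and *Pdgfrb* were higher in *Angpt1*ΔNC as a class, but the make-up of the class also differed. *Pdgfa* was 4.94 and 3.63 in controls and 6.71 in *Angpt1*ΔNC, a log2 change of 0.89 (SE 0.16, edgeR adjusted p = 0.000838). *Pdgfrb* was 2.69, 2.77 and 4.22, a change of 0.90 (SE 0.13, edgeR adjusted p = 0.000208). *Angpt1*ΔNC lay above both controls for each. Cluster 19, which had the lowest mural levels of both transcripts, held 387, 499 and 54 cells, cluster 20 461, 512 and 222 and cluster 21 188, 174 and 69. With equal cells per label, the change of *Pdgfa* was 0.45 (edgeR adjusted p = 0.0739) and that of *Pdgfrb* 0.12 (edgeR adjusted p = 0.746). The summed stress level in mural cells was 146, 135 and 84.3, and 5 of 12 stress genes fell, *Fos* by 2.12 on the log2 scale. Its part in these values was not tested.

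In pericyte-like cluster 20 *Pdgfa* was higher in *Angpt1*ΔNC also on its own. There it had 743, 717 and 636 UMIs in 461, 512 and 222 cells, at levels of 3.64, 3.02 and 6.55, and the *Angpt1*ΔNC level lay above both controls. The share of positive cells was 54.7%, 53.7% and 76.1%, or 39.5%, 36.5% and 56.0% after thinning. *Pdgfa* rose by 1.02 on the log2 scale (SE 0.16, edgeR adjusted p = 0.000450, DESeq2 adjusted p = 0.00241), against 7.67% of all genes called in cluster 20. It remained past the threshold in each alternative with a test, at 1.08 in male-typed cells. In cluster 21 (8.21% of genes called) *Pdgfa* was 14.9, 11.2 and 11.5, so the libraries overlapped, and in cluster 19 it was 1.64, 1.60 and 1.31, neither past the threshold. The change in cluster 20 was larger than that in cluster 21 by 1.18 (SE 0.22, edgeR adjusted p = 2.69e-05, 3.01% of genes called). That pair was chosen after the values were seen, and cluster 21 itself shifted from smooth muscle to pericyte markers in *Angpt1*ΔNC (the sums given above), whose part in the difference was not tested. In cluster 20, *Pdgfrb* was 4.98, 5.38 and 5.92, and in cluster 21 1.84, 1.82 and 1.68.

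Cluster 20 held fewer fibroblast and endothelial transcripts in *Angpt1*ΔNC. The summed level of the 6 fibroblast markers was 21.8, 19 and 10.7, of 6 endothelial markers 6.31, 6.90 and 3.65, and of smooth muscle markers, which mark the *Pdgfa*-rich cluster 21, 24.1, 14.8 and 21.9, where *Angpt1*ΔNC lay between the controls. The median share of mitochondrial UMIs was 3.65%, 4.75% and 5.45%. The part of these in the *Pdgfa* value was not tested.

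In the TM stroma, which gave most of the UMIs of both receptors, neither receptor was called. *Pdgfra* was 1.81, 2.12 and 2.12, a change of 0.12 (SE 0.16, edgeR adjusted p = 0.689), and *Pdgfrb* 1.64, 1.52 and 1.37, a change of -0.10 (SE 0.14, edgeR adjusted p = 0.729). *Pdgfc* was 0.0718, 0.0644 and 0.107, a change of 0.59 (SE 0.18, edgeR adjusted p = 0.0750). The called member, *Pdgfb*, was at 0.0135, 0.00735 and 0.0266, from 29, 23 and 64 UMIs, a change of 1.68 (SE 0.37, edgeR adjusted p = 0.0272, DESeq2 adjusted p = 0.264). It rested on 1 cell of TM3 with 19 *Pdgfb* UMIs among 18636. This cell had 171 UMIs of *Dcn*, the fibroblast proteoglycan decorin, 5 of *Pdgfra* and 8 of *Pdgfrb*, and 0 of each endothelial, immune and platelet marker. Without it the change was 1.18 (edgeR adjusted p = 0.109).

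In cluster 17, where 6 fibroblast markers summed to 89.0, 92.3 and 89.9, *Pdgfra* was 1.12, 1.22 and 2.04, from 237, 513 and 912 UMIs in 466, 924 and 892 cells. *Angpt1*ΔNC lay above both controls, and 32.0%, 31.7% and 47.9% of cells were positive, or 17.4%, 16.2% and 25.4% after thinning. The change was 1.04 (SE 0.15) with an edgeR adjusted p of 0.0771, above the threshold, while DESeq2 (adjusted p = 0.0184) and male-typed cells (0.88, edgeR adjusted p = 0.00701) were below it. *Pdgfd* went the other way, 0.382, 0.381 and 0.184, a change of -0.87 (SE 0.19, edgeR adjusted p = 0.122). Stress genes summed to 146, 116 and 77 in cluster 17, and smooth muscle markers to 43.8, 23.9 and 16.3. In the surface epithelium *Pdgfb* was 0.0953, 0.0838 and 0.132, a change of 0.73 (SE 0.18, edgeR adjusted p = 0.140).

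Fits of single labels, added after the data were seen, gave 109 member tests over 31 labels, and 9 (8.26%) were called, 7 higher and 2 lower, against 5.13% of all gene tests in these labels. Of the 9, *Pdgfa* in cluster 20 alone was also called by DESeq2. One of them was *Pdgfb* in TM3, whose 1, 1 and 26 UMIs rest on the cell described above. In TM9 15.1% of genes were called, and *Pdgfrb* was among them at 2.86, 2.61 and 1.38, a change of -0.91 (SE 0.24, edgeR adjusted p = 0.00187, DESeq2 adjusted p = 0.118). In TM8 the receptor was 2.39, 2.34 and 2.51, and the change in TM9 minus that in TM8 was -1.17 (SE 0.21, edgeR adjusted p = 3.05e-06, 2.73% of genes called), a pair chosen after the values were seen. Stress genes in TM9 summed to 90.0, 86.6 and 52.6. Smooth muscle markers summed to 3.02, 3.56 and 7.41 in TM9 and 2.00, 2.1 and 5.42 in TM8, and pericyte markers in TM8 to 5.46, 4.26 and 1.15. The part of these in the *Pdgfrb* and *Pdgfa* values of both labels was not tested. In TM3 *Pdgfrb* was higher in *Angpt1*ΔNC, at 0.657, 0.908 and 1.67 (1.12, SE 0.22, edgeR adjusted p = 2.02e-05, DESeq2 adjusted p = 0.210), against 7.03% called.

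The receptor *Pdgfra* differed between cluster 17 and TM10 in its change, 1.75 apart (SE 0.25, edgeR adjusted p = 3.95e-08, 5.37% of genes called), also a pair chosen after the values were seen. In TM10 it was 1.48, 2.06 and 1.18, so that *Angpt1*ΔNC lay below both controls (-0.72, edgeR adjusted p = 0.0258, DESeq2 adjusted p = 0.904, 11.6% called). Without control 2 the change was -0.42, and without control 1 -0.97. The other calls were *Pdgfa* in TM8 (0.831, 0.663 and 1.36) and *Pdgfd* in TM9 (0.127, 0.141 and 0.285). In TM8, the change of *Pdgfa* was 1.21 (edgeR adjusted p = 0.0102, 3.58% called) and 0.05 in male-typed cells. In TM9, that of *Pdgfd* was 1.10 (edgeR adjusted p = 0.0135) with a DESeq2 adjusted p of 0.826. *Pdgfb* in cluster 24, at 1.56, 1.75 and 2.37, did not pass the threshold (0.57, SE 0.15, edgeR adjusted p = 0.0520, 4.48% called).

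**Figure D5:**
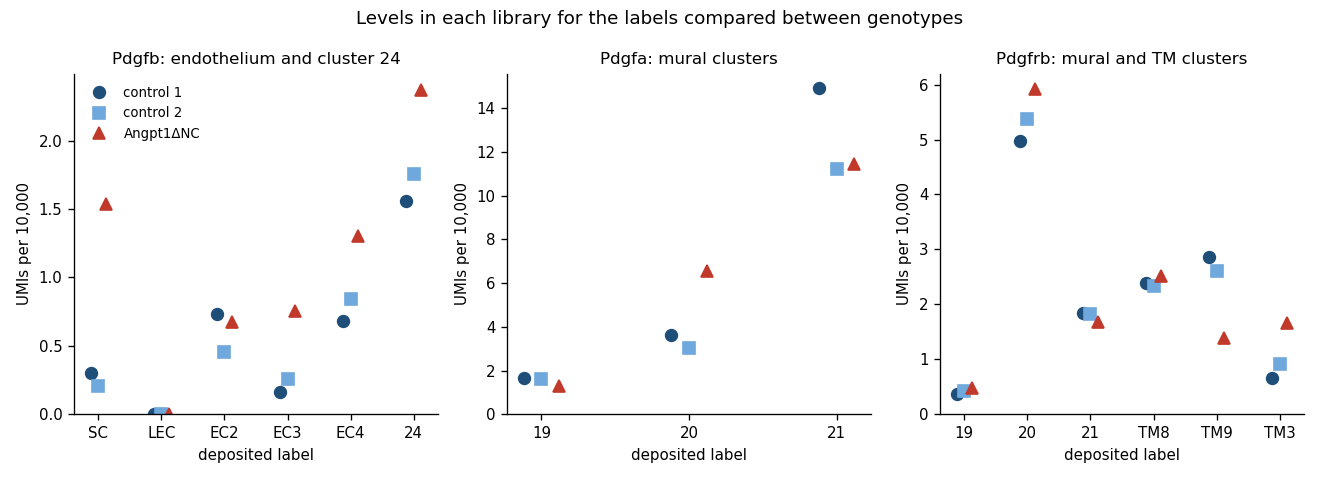
Levels (y axes, UMIs per 10,000) of *Pdgfb* in endothelial labels and cluster 24, *Pdgfa* in mural clusters and *Pdgfrb* in mural and TM labels, with 1 point per library. *Pdgfa* in cluster 20 lies at 3.64 and 3.02 in controls and 6.55 in *Angpt1*ΔNC, and in cluster 21 the libraries overlap.

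Other genes of the PDGF pathway were read from lists. In the endothelium, where 12.9% of all genes were called, 3 of 6 feedback inhibitors were called, with *Spred2* (log2 change 1.21) and *Spry1* (0.76) higher and *Spry2* (-0.87) lower; the median of the list was 0.40 against -0.02 over all genes. Of 6 proteases 1 was called, *Furin* (0.56), whose product cuts the PDGF-A and PDGF-B precursors. Of 18 adaptors and effectors *Nck1* (0.52) was higher and *Yes1* (-0.71) lower, of 3 related receptors and ligands *Kit* (0.99) and *Csf1* (0.71) were higher, and 0 of 4 phosphatases and 0 of 2 co-receptors were called. None of these endothelial calls was made by DESeq2, where *Spred2* had an adjusted p of 0.0859 and *Spry2* and *Kit* had none.

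In mural cells, where 16.4% of all genes were called, 2 of 6 proteases were higher, *Plat* (0.70), whose product activates PDGF-C, and *Plau* (1.44), whose product activates PDGF-D, with a list median of 0.28 against -0.05 over all genes. *Sparc* (0.49), a PDGF-binding matrix protein, the phosphatase gene *Ptpn1* (0.89), *Spred1* (0.59) and *Il34* (1.20) were higher too. Of 19 adaptors and effectors *Fyn*, *Gab1* and *Pik3r1* were higher (0.80 to 1.16) and *Pik3cb* (-2.15) and *Rasa1* (-0.88) lower. With equal cells per label, *Plau*, *Gab1* and *Rasa1* were still called among these 11 genes (edgeR adjusted p = 0.00386, 0.000458 and 0.0259), and *Plat* was not (edgeR adjusted p = 0.970). DESeq2 called *Plat*, *Plau*, *Sparc*, *Pik3r1*, *Ptpn1* and *Il34*. It did not call *Gab1* (DESeq2 adjusted p = 0.0600), *Rasa1* (0.350), *Fyn* or *Spred1*, and *Pik3cb* had no adjusted p. *Plau* alone was called in both alternatives.

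In the TM stroma, where 8.97% of all genes were called, 2 of 6 feedback inhibitors fell, *Spry1* by 1.21 and *Spry4* by 0.66 on the log2 scale, with a list median of -0.44 against -0.01 over all genes. *Nrp1*, a co-receptor, fell by 0.72, the phosphatase gene *Ptpn2* by 0.85 and *Kitl*, the KIT ligand, by 1.10, while *Csf1* (0.80), *Src* (0.79) and *Pcsk6* (0.70) rose. DESeq2 also called *Spry1*, *Nrp1*, *Ptpn2*, *Kitl* and *Csf1*. With equal cells per label, *Spry1* (-0.686), *Kitl* (-0.628), *Csf1* (0.559), *Src* (0.804) and *Pcsk6* (0.594) were still called by edgeR. *Nrp1* (-0.415, edgeR adjusted p = 0.0962), *Ptpn2* (-0.396, edgeR adjusted p = 0.117) and *Spry4* (-0.427) were not. In this class TM8 held 591, 612 and 155 of the cells, TM7 667, 739 and 174 and TM9 204, 298 and 327. Equal cells per label evens out such differences. Pericyte markers summed to 5.51, 4.14 and 1.13 in the class and fibroblast markers to 224, 246 and 354. The part of these marker sums was not tested. Of the 12 stress genes, 2 fell in the TM stroma, and in the endothelium 2 rose and 2 fell, *Hspa1a* by 2.44. No pathway gene was called in cluster 17 or in the surface epithelium by edgeR, where 2338 and 2631 of all genes had an unadjusted p under 0.05, and DESeq2 called 193 and 492 genes.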

How the data were processed

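Single cells of 3 droplet libraries (2 control pools and 1 *Angpt1*ΔNC pool) were analysed. The authors deposited raw UMI counts per gene and cell, made with Cell Ranger (2.1.1 in the submitters' processing notes, 3.0.2 in the matrix headers) on build mm10, and 2 tables with a label per kept cell. They removed cells under 200 genes, under 1000 UMIs or over 10% mitochondrial reads and predicted doublets, and integrated 5000 variable genes with Seurat 3.1.3. The integrated natural log values deposited by the authors were not used. Of the kept cells, 52 pairs shared a barcode between libraries, and 3 pairs had the same label.

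Counts were summed per library and class and tested with edgeR 4.0.16 in R 4.3.3 (TMM factors, genes with low counts removed, quasi-likelihood test, Benjamini-Hochberg adjusted p under 0.05), with DESeq2 1.42.0, other size factors, no filter, equal cells per label, male-typed cells and leaving out each control as alternatives. Differences of a change between labels were tested with the library as a block. Counts over labels used Python 3.11.15, numpy 2.4.6, scipy 1.17.1, pandas 2.3.3 and matplotlib 3.10.9. For shares, cells were thinned to 2000 UMIs; a share of 0 was limited by 3 counts. For likeness, 0.1 was added before log2. The edgeR and DESeq2 fits were tested on simulated counts drawn around the endothelial means. The genes named are the 6 members, the 5 genes most like each member, apart from an item that is not reported here, and pathway genes past the threshold. The members and lists were chosen with earlier results of these data known. Nothing says that the 2 control pools came from separate litters or days, so p-values measure the spread between these libraries only.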

Additional observations from a re-analysis of the deposited data

Results flagged for a closer look

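In 3 cases the genotype effect on a member differed between 2 groups of cells, by a test of the difference itself with the library as a block. The pairs were chosen after the values were seen. The change of *Pdgfa* was larger in pericyte-like cluster 20 than in cluster 21 by 1.18 on the log2 scale. That of *Pdgfrb* was lower in TM9 than in TM8, by -1.17. That of *Pdgfra* was higher in cluster 17 than in TM10, by 1.75. No group had enough libraries for a test of outlying libraries.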

How the results depend on the processing

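Of 187 alternative values for the members in the 5 classes, 164 were counted as unchanged, as were 43 of 62 in single labels. Where a test was possible, unchanged means the same direction and side of the threshold. Where a control was left out there was no test, and it means a shift of less than 1 SE from the main fit. Endothelial *Pdgfb* and *Pdgfa* in cluster 20 remained past the threshold wherever a test was possible. DESeq2 called 261 genes in the endothelium, 550 in mural cells, 629 in the TM stroma, 193 in cluster 17 and 492 in the surface epithelium, against 1250, 1898, 1251, 33 and 18. Equal cells per label gave 854 genes in mural cells and 0 in cluster 17. No filter gave 2441 in the TM stroma, 13 in cluster 17 and 2005 in the surface epithelium, other size factors 15 in cluster 17, and male-typed cells 443 and 91 in the last 2 classes. Without the shared barcodes, chosen after seeing the data, they were 0 and 360. In log2 changes, equal cells per label gave *Pdgfa* 0.45 and *Pdgfrb* 0.12 in mural cells, no longer called, and turned *Pdgfa* in cluster 17 (-0.093) and the endothelium (0.077), *Pdgfc* in the surface epithelium (-0.073) and *Pdgfrb* in the TM stroma (0.022). Male-typed cells turned *Pdgfd* (-0.13) and *Pdgfra* (-0.92) in mural cells, and the shared barcodes *Pdgfrb* in the surface epithelium (-0.13). *Pdgfb* in the TM stroma was not called with DESeq2 (1.69), in male-typed cells (0.31) or without the TM3 cell (1.18, chosen after seeing the data). Newly called were *Pdgfb* in the surface epithelium without a filter (0.71), *Pdgfc* in the TM stroma in male-typed cells (0.80) and without a filter (0.59), and *Pdgfra* in cluster 17 with DESeq2 (1.05) and in male-typed cells (0.88). Causes were not tested. Leaving out a control leaves 1 library against 1, which gives changes without a test: -0.30 to 0.15 for *Pdgfa* and 0.15 to 1.02 for *Pdgfd* in the endothelium, and 0.70 to 1.11 for *Pdgfa* in mural cells. Averaged over libraries, *Pdgfrb* was found in 25.6% of *Pdgfra*-positive and 22.5% of *Pdgfra*-negative TM stroma cells at 2000 UMIs, and in 27.6% and 22.9% where 2 UMIs were required. No paired analysis was possible because the groups share fewer than 2 replicate numbers, which are in accession order only.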
